A study of Homo sapiens with 12 samples.

Results

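Lysosomal genes were followed as a module of 54 genes, taken by gene symbol from the 19504 named rows of the deposited count table. The module holds 3 transcription factors of the MiT/TFE family, 10 proteases, 7 glycosidases, 4 sulfatases, 6 lipid hydrolases and their activators, 2 proteins of sterol export, 7 membrane proteins, and 5 V0, 8 V1 and 2 accessory subunits of the proton pump (V-ATPase). All 54 had a row, and 53 passed the filter on low counts. Messenger RNA was read at its 3' end in 2 human acute myeloid leukaemia cell lines, MV4-11, in which the receptor kinase FLT3 has an internal tandem duplication, and OCI-AML3, in which NPM1 is mutated and FLT3 has no duplication of this kind. Both lines were grown in RPMI-1640 with fetal bovine serum and held for 24 h with DMSO, the vehicle, or with 5 nM AC220 (quizartinib), an inhibitor of FLT3. The 4 groups (MV4-11 DMSO, MV4-11 AC220, OCI-AML3 DMSO and OCI-AML3 AC220) held 3 libraries each. With 1 line of each kind, the FLT3 duplication and every other difference between the lines cannot be told apart.

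Lysosomes are acidic compartments in which hydrolases break down proteins, glycans and lipids delivered by endocytosis and autophagy. The V-ATPase keeps them acidic: its peripheral V1 sector splits ATP and its membrane-bound V0 sector passes protons into the lumen. TFEB, TFE3 and MITF bind an extended E-box in the promoters of many lysosomal genes, and are held in the cytoplasm when the kinase mTORC1 phosphorylates them at the lysosomal surface. Myeloid cells use lysosomes for digesting what they engulf and for processing antigen.

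Total counts per library ran from 10877198 to 16918761, and the chi-square of replicate pairs, per degree of freedom, from 2.79 to 10.6. MV4-11 AC220 replicate 1 gave the largest, 9.56 and 10.6, with its 2 fellow replicates. Whether replicates were separate cultures is not stated, so the spread that p-values measure here may be technical. In bulk RNA, fewer cells of a kind and less RNA per cell cannot be told apart. Levels are given as CPM, which are counts divided by a TMM-scaled library size, and each log2 fold change comes from edgeR's quasi-likelihood test, with p-values adjusted by Benjamini-Hochberg over 12392 genes and a threshold of 0.05. CPM of different genes are not compared with each other.

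The first comparison asked how lysosomal genes responded to AC220 in the line with the FLT3 duplication. In MV4-11, 36 of the 53 tested members rose, 4 fell and 13 were not called. Over all genes tested, 31.5% were called higher and 26.9% lower. The median log2 fold change was 0.52 over the members and 0.07 over all genes. Of the members, 15 rose by at least 2-fold, as did 9.73% of all genes, and 0 fell by as much, against 8.74% of all genes. Those that fell were the protease CTSH, the sphingomyelinase SMPD1 and the pump subunits ATP6V0A1 and ATP6V1B2. The summed level of the 54 members was 3577, 3531 and 3465 CPM in the libraries under DMSO and 4863, 5221 and 5276 CPM under AC220. The groups did not overlap. Among the 40 calls, 35 held under all 22 other settings, which changed the scaling, filter, test, input, block or libraries.

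**Figure D1:**
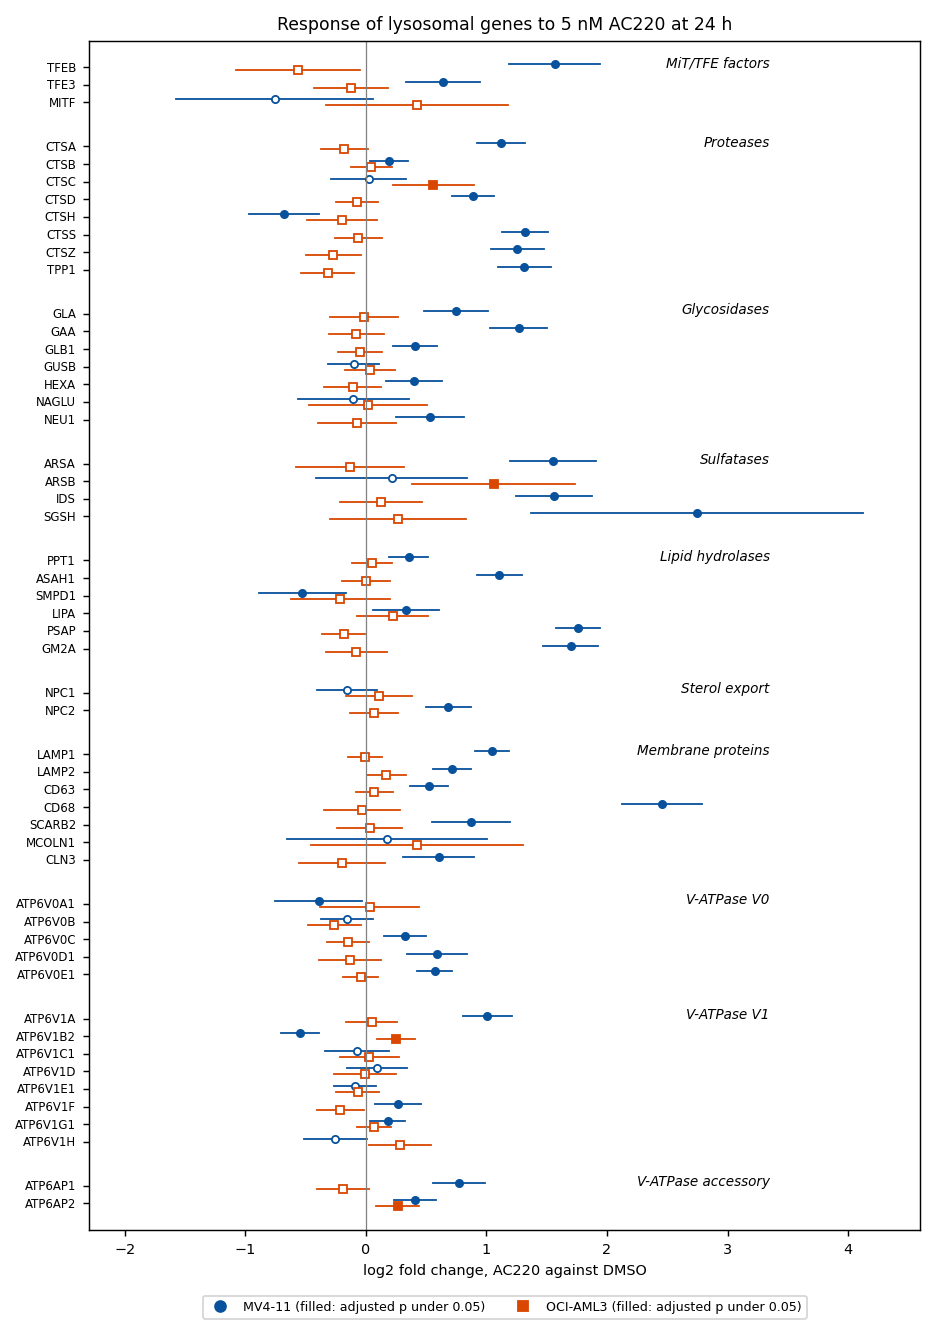
Log2 fold change of AC220 against DMSO (x axis) for 52 lysosomal genes (y axis, grouped by class), with bars for the 95% interval; circles are MV4-11, squares OCI-AML3, and filled symbols have an adjusted p under 0.05. CTSL, with almost no counts in MV4-11, and LGMN, which was not tested, are left out. Most MV4-11 symbols lie to the right of 0 outside the V1 sector, while OCI-AML3 symbols lie near 0.

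Of the MiT/TFE factors, TFEB and TFE3 rose in MV4-11 and MITF was not called. TFEB, regarded as the master regulator of lysosomal biogenesis, had 8.93, 7.57 and 6.24 CPM in the DMSO libraries and 19.1, 23.0 and 25.5 CPM in the AC220 libraries. It rose by 1.57 on the log2 scale (SE 0.165, adjusted p = 2.5e-09), and every AC220 library lay above every DMSO library. In OCI-AML3 TFEB stood at 4.74, 4.71 and 3.18 CPM under DMSO and at 2.89, 3.12 and 2.52 CPM under AC220. There the AC220 libraries were all lower, but the difference did not pass the test (log2 fold change -0.56, adjusted p = 0.139). Without OCI-AML3 DMSO replicate 3 TFEB was called lower in that line by the same test (-0.73, adjusted p = 0.0494). TFE3, a paralogue with overlapping targets, went from 14.9, 12.5 and 10.5 CPM to 20.5, 19.4 and 19.3 CPM in MV4-11 (log2 fold change 0.64, SE 0.134, adjusted p = 0.000154). In OCI-AML3 TFE3 lay at 15.2, 18.1 and 20.1 CPM under DMSO and 16.7, 17.3 and 14.95 CPM under AC220, with overlapping groups. MITF, best known for melanocytes and osteoclasts, stood at 2.73, 2.63 and 2.64 CPM in MV4-11 under DMSO and at 1.60, 0.745 and 2.36 CPM under AC220 (log2 fold change -0.76, adjusted p = 0.0668). It was called lower under 6 other settings: without MV4-11 AC220 replicate 3 (-1.19, adjusted p = 0.0128), without OCI-AML3 DMSO replicate 2, with total counts alone, without a filter, with the replicate block and in the MV4-11 libraries alone. In OCI-AML3 MITF stood at 3.11, 1.1398 and 2.75 CPM under DMSO and 2.80, 2.78 and 3.81 CPM under AC220. The response of TFEB was higher in MV4-11 than in OCI-AML3 by 2.13 on the log2 scale (SE 0.277, adjusted p = 2.41e-07) and that of TFE3 by 0.77 (adjusted p = 0.00132), while that of MITF was lower (log2 difference -1.18, adjusted p = 0.0443). These are transcript levels, and the place of the factors in the cell was not measured.

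**Figure D2:**
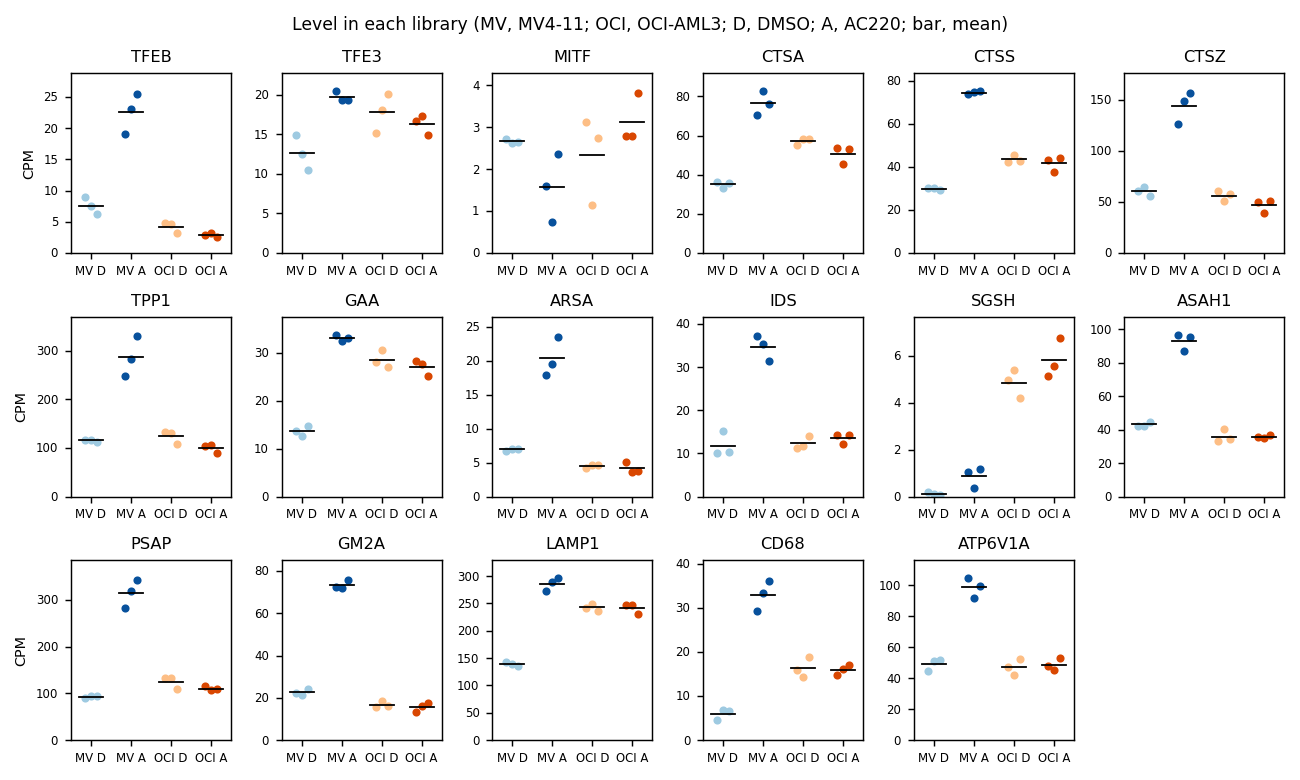
CPM (y axis, from 0) in each library of the 4 groups (x axis) for the 3 MiT/TFE factors and the members that rose by at least 2-fold in MV4-11; points are libraries and bars group means. For PSAP the MV4-11 AC220 libraries lie between 282 and 344 CPM, above the 3 other groups, which lie between 89.8 and 133 CPM.

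The MiT/TFE factors bind an E-box in the promoters of many lysosomal genes, so the members' promoters were searched for it. RefSeq promoters (GRCh38.p14, 250 bases before to 50 bases from the start on) were given for 39 of the 54 members and for 27305 genes in all. The other members were CTSB, CTSS, LGMN, HEXA, NAGLU, ARSA, SGSH, ASAH1, PSAP, LAMP2, ATP6V0E1, ATP6V1A, ATP6V1B2, ATP6V1C1 and ATP6V1H. The palindrome TCACGTGA stood in 7 of the 39 members' promoters (17.9%) and in 283 of all promoters (1.04%). Its shorter form TCACGTG, read on both strands, stood in 10 members (25.6%) and in 3.82% of all promoters, and the core CACGTG in 11 members (28.2%) and 7.43%. Each longer form contains the shorter ones. The M-box TCATGTG stood in 5 members (12.8%) and 2.99% of all promoters. The palindrome was found in CTSA, GAA, LAMP1, MCOLN1, CLN3, ATP6V0D1 and ATP6V1G1, of which MCOLN1 alone was not called in MV4-11. It stood in 6 of 26 matched promoters of members that rose (23.1%), in 1 of 10 of members not called and in 0 of 3 of members that fell. TFEB, TFE3 and MITF held none of these motifs in the windows searched, nor did GM2A, CD68, CTSZ and IDS, which rose by at least 2-fold. The promoters of the carboxypeptidase CTSA, the glucosidase GAA and the membrane protein LAMP1 are shown from 250 bases before to 20 bases from the start on, because these members rose by over 2-fold and hold the palindrome, in capitals. CTSA lies at chr20:45891085-45891354, GAA at chr17:80101331-80101600 and LAMP1 at chr13:113296989-113297258, all on the plus strand.
CTSA: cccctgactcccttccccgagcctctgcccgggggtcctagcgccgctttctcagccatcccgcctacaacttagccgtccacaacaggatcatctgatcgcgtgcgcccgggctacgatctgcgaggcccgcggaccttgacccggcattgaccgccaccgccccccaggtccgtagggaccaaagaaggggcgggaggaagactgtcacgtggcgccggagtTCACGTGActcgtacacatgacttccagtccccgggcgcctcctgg
GAA: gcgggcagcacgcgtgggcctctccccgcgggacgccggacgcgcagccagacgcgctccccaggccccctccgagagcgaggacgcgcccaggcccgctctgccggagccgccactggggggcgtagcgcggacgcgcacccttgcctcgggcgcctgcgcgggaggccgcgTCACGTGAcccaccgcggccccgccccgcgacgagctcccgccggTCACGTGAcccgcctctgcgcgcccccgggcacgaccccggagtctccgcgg
LAMP1: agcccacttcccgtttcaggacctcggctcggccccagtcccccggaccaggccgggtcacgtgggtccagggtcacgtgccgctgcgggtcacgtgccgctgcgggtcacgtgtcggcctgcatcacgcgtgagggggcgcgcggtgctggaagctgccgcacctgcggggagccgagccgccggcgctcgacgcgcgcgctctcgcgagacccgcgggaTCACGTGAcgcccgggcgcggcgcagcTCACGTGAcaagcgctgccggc
The palindrome began 26 bases before the start in CTSA, 77 and 32 bases before it in GAA, and 29 and 2 bases before it in LAMP1. LAMP1 held 6 copies of the core in all. A match is a description of the letters in these windows, and binding was not measured. Whether matches bear on the response to AC220 was not tested, and the shares were not compared by a test.

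Among the proteases, 6 of 9 tested members rose in MV4-11, 1 fell and 2 were not called, with a median log2 fold change of 0.89. CTSS, a cysteine protease that trims the invariant chain of MHC class II, stood at 30.3, 30.0 and 29.1 CPM under DMSO and 73.6, 74.5 and 74.9 CPM under AC220, a log2 fold change of 1.32 (SE 0.0827, adjusted p = 3.46e-14). TPP1, an aminopeptidase that removes tripeptides, went from 116, 117 and 112 CPM to 247, 283 and 330.0 CPM (log2 fold change 1.31, SE 0.0943, adjusted p = 9.36e-11). CTSZ, a carboxypeptidase, went from 61.0, 64.4 and 55.4 CPM to 127, 149 and 157 CPM (log2 fold change 1.26, SE 0.0950, adjusted p = 9.64e-12). Each of these rose by more than 2-fold, and no AC220 library reached down to a DMSO library. CTSA, which also protects NEU1 and GLB1 in a complex, went from 36.4, 33.1 and 35.9 CPM to 70.7, 82.6 and 76.0 CPM (log2 fold change 1.12, SE 0.0856, adjusted p = 2.95e-12). The aspartic protease CTSD rose by 0.89 (adjusted p = 2.09e-11). CTSB, another cysteine protease, rose by 0.19, from 191, 184 and 191 CPM to 199, 235 and 213 CPM (adjusted p = 0.0202). That call was lost without any of 3 MV4-11 libraries (DMSO replicate 2, AC220 replicate 2 and AC220 replicate 3, with adjusted p of 0.0857, 0.150 and 0.114), with total counts alone, and when the MV4-11 libraries alone were fitted.

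CTSH, an aminopeptidase of the cathepsin family, was the protease that fell. It stood at 21.6, 22.8 and 19.7 CPM in MV4-11 under DMSO and 11.2, 15.5 and 13.5 CPM under AC220, a log2 fold change of -0.68 (SE 0.126, adjusted p = 3.11e-05), without overlap. CTSC, which activates granule serine proteases, was not called in MV4-11, with 41.1, 42.2 and 48.4 CPM under DMSO and 50.4, 40.4 and 42.6 CPM under AC220 (log2 fold change 0.02, 95% interval -0.29 to 0.34). CTSL, a cysteine endopeptidase, was at the limit of detection in MV4-11, with 5 counts in all 3 DMSO libraries, all of them in replicate 2, and 0 counts under AC220. LGMN, the asparaginyl endopeptidase, reached at most 0.727 CPM in any library and was not tested.

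Of the 7 glycosidases 5 rose in MV4-11 and 0 fell, with a median log2 fold change of 0.41. GAA, which degrades glycogen, stood at 13.7, 12.6 and 14.7 CPM under DMSO and 33.7, 32.4 and 33.0 CPM under AC220, a log2 fold change of 1.27 (SE 0.103, adjusted p = 1.15e-11). The others rose by less than 2-fold: GLA, the enzyme lost in Fabry disease, by 0.74, the sialidase NEU1 by 0.53, the galactosidase GLB1 by 0.41 and HEXA, the alpha subunit of hexosaminidase, by 0.40. GUSB and NAGLU, both of glycosaminoglycan breakdown, had log2 fold changes of -0.10 each and overlapping groups. Without MV4-11 AC220 replicate 3 GUSB was called lower (-0.23, adjusted p = 0.0468).

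Of the 4 sulfatases, which remove sulfate from glycolipids and glycosaminoglycans, 3 rose in MV4-11 and ARSB was not called. IDS stood at 10.0, 15.1 and 10.3 CPM under DMSO and 37.2, 35.4 and 31.5 CPM under AC220, a log2 fold change of 1.56 (SE 0.137, adjusted p = 6.15e-11). ARSA, which acts on sulfatide, went from 6.67, 7.06 and 7.07 CPM to 17.9, 19.5 and 23.5 CPM (log2 fold change 1.55, SE 0.155, adjusted p = 8.6e-10). The DMSO and AC220 libraries lay clear of each other for both. SGSH had 6 counts under DMSO and 31 under AC220 over the 3 libraries, or 0.174, 0.128 and 0.0643 CPM against 1.06, 0.372 and 1.18 CPM. Its log2 fold change of 2.75 has a wide 95% interval, from 1.37 to 4.12 (SE 0.596, adjusted p = 0.000167). Genes on the opposite strand cover the 3' end of SGSH (CARD14), CTSA (PLTP), GLA (RPL36A-HNRNPH2) and PPT1 (CAP1) in GENCODE 29, and whether counting used strand is not given in the sources used here.

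All 6 lipid hydrolases and activators were called in MV4-11, with 5 higher and 1 lower. PSAP, the precursor of the saposins that lift sphingolipids toward their hydrolases, stood at 89.8, 94.7 and 93.9 CPM under DMSO and 282, 318 and 344 CPM under AC220, a log2 fold change of 1.76 (SE 0.0780, adjusted p = 8.45e-18). GM2A, the activator that presents ganglioside GM2 to hexosaminidase, went from 22.2, 21.4 and 24.3 CPM to 72.5, 72.1 and 75.7 CPM (log2 fold change 1.698, SE 0.0982, adjusted p = 4.94e-15). Both activators were more than 3-fold higher. ASAH1, acid ceramidase, went from 42.3, 42.3 and 44.7 CPM to 96.4, 86.9 and 95.2 CPM (log2 fold change 1.11, SE 0.0823, adjusted p = 1.56e-12). SMPD1, acid sphingomyelinase, which makes the ceramide that ASAH1 cleaves, fell. It stood at 19.7, 15.7 and 19.1 CPM under DMSO and 10.4, 11.4 and 16.1 CPM under AC220, a log2 fold change of -0.53 (SE 0.157, adjusted p = 0.00501), and 1 AC220 library lay above the lowest DMSO library. The thioesterase PPT1 rose by 0.35. The acid lipase LIPA rose by 0.33 (adjusted p = 0.0175), from 23.1, 27.4 and 26.9 CPM to 39.6, 28.6 and 28.9 CPM. Its value was 0.15 (adjusted p = 0.264) without MV4-11 AC220 replicate 1, the highest library, and 0.25 (adjusted p = 0.1103) without MV4-11 DMSO replicate 1, and the call was also lost with total counts alone and when the MV4-11 libraries alone were fitted.

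The 2 proteins that pass cholesterol out of the lysosome differed in call. NPC2, the soluble carrier, stood at 47.7, 50.4 and 46.5 CPM in MV4-11 under DMSO and 74.5, 82.4 and 75.7 CPM under AC220, a log2 fold change of 0.68 (SE 0.0806, adjusted p = 2.16e-08). NPC1, the membrane protein that receives cholesterol from it, stood at 29.2, 31.9 and 30.5 CPM and at 28.5, 28.95 and 24.8 CPM, and was not called (log2 fold change -0.16, 95% interval -0.40 to 0.09).

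Of the 7 membrane proteins 6 rose in MV4-11 and 0 fell, with a median log2 fold change of 0.72. CD68, a heavily glycosylated protein of macrophage lysosomes, stood at 4.64, 6.87 and 6.49 CPM under DMSO and 29.2, 33.2 and 36.1 CPM under AC220, which was 5.48-fold higher (SE 0.145 on the log2 scale, adjusted p = 7.55e-15). LAMP1, a major glycoprotein of the limiting membrane, went from 142, 139 and 135 CPM to 272, 289 and 296 CPM, 2.06-fold higher (adjusted p = 6.74e-15). In both cases the groups lay far apart. SCARB2, the receptor that carries glucocerebrosidase to the lysosome, rose by 0.87, from 5.34, 6.87 and 6.88 CPM to 12.2, 11.5 and 11.0 CPM (adjusted p = 4.09e-06). LAMP2 rose by 0.72, the Batten disease protein CLN3 by 0.60 and the tetraspanin CD63 by 0.52. MCOLN1, the calcium channel of the lysosome, stood between 1.48 and 2.38 CPM in the MV4-11 libraries and was not called (log2 fold change 0.18, 95% interval -0.66 to 1.01). PNPLA6, on the same strand, covers the 3' end of MCOLN1 in GENCODE 29.

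Of the pump's subunits, 3 of 5 in V0, 3 of 8 in V1 and both accessory proteins rose in MV4-11, and 1 fell in each sector. Of all genes 31.5% were called higher and 26.9% lower. The share of V1 subunits higher was near that of all genes, and their median log2 fold change was 0.01, against 0.07 over all genes. ATP6V1A, the catalytic subunit of V1, stood at 44.6, 50.8 and 52.0 CPM under DMSO and 104, 92.0 and 99.4 CPM under AC220, a log2 fold change of 1.01 (SE 0.0880, adjusted p = 5.35e-11). ATP6V1B2, the partner with which it forms the catalytic ring, went the other way, from 323, 337 and 322 CPM to 244, 207 and 221 CPM (log2 fold change -0.55, SE 0.0678, adjusted p = 5.67e-08). Neither pair of groups overlapped. The other V1 subunits had log2 fold changes between -0.25 and 0.26. ATP6V1F rose by 0.26 (adjusted p = 0.00786) and ATP6V1G1 by 0.18 (adjusted p = 0.0141), while ATP6V1C1, ATP6V1D, ATP6V1E1 and ATP6V1H were not called. ATP6V1H (-0.25, adjusted p = 0.0570) was called lower under 6 other settings, among them without MV4-11 AC220 replicate 1 (-0.35, adjusted p = 0.0182), and ATP6V1E1 with total counts alone. The ATP6V1F call was lost without MV4-11 DMSO replicate 2, DMSO replicate 3 or AC220 replicate 2 (adjusted p of 0.0567, 0.0513 and 0.0677), and the ATP6V1G1 call without DMSO replicate 3 or AC220 replicate 3 (adjusted p of 0.0780 and 0.138). Total counts alone ended both calls, and for ATP6V1G1 so did the fits without a filter and of the MV4-11 libraries alone. A gene on the opposite strand covers the 3' end of ATP6V1F (KCP), of ATP6V1D (MPP5) and, in sterol export, of NPC1 (RMC1). The summed level of V1 subunits was 827, 822 and 810.5 CPM under DMSO and 804, 784 and 795 CPM under AC220.

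In V0, ATP6V0E1, a small membrane subunit, stood at 124, 121 and 123 CPM in MV4-11 under DMSO and 174, 191 and 180.4 CPM under AC220, a log2 fold change of 0.57 (SE 0.0630, adjusted p = 6.43e-09). ATP6V0D1, which couples V0 to the rotor, rose by 0.59, and ATP6V0C, the proton-carrying ring subunit, by 0.33. ATP6V0A1, an isoform of the large V0 subunit, fell by 0.39 on the log2 scale, from 14.7, 16.8 and 14.5 CPM to 9.19, 10.89 and 15.2 CPM, with overlapping groups (adjusted p = 0.0343). The fall did not pass the test without MV4-11 DMSO replicate 2, AC220 replicate 1 or AC220 replicate 2 (adjusted p of 0.131, 0.213 and 0.100), with upper-quartile scaling or with a stricter filter on low counts. ATP6V0B, another ring subunit, was not called (log2 fold change -0.16), but was called lower without MV4-11 AC220 replicate 3 (-0.32, adjusted p = 0.0052), with total counts alone, without a filter and when the MV4-11 libraries alone were fitted. ATP6AP1, an accessory protein of pump assembly, went from 66.9, 58.5 and 61.7 CPM to 96.0, 103 and 121 CPM (log2 fold change 0.77, SE 0.0923, adjusted p = 3.78e-08). ATP6AP2, known as the prorenin receptor, went from 63.9, 68.0 and 70.0 CPM to 92.5, 89.5 and 84.9 CPM (log2 fold change 0.40, SE 0.0752, adjusted p = 3.52e-05).

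**Figure D3:**
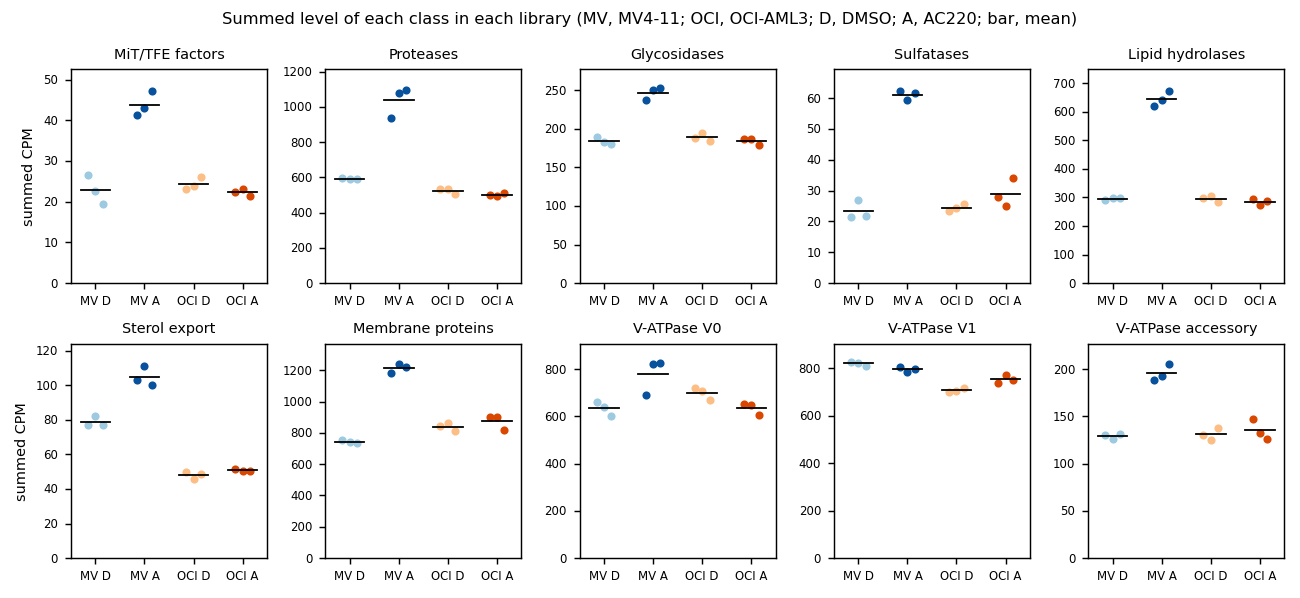
Summed CPM of each class (y axes, from 0) in each library of the 4 groups (x axis); points are libraries and bars group means. In MV4-11 every AC220 sum lay above every DMSO sum in each class other than V1, whose 8 subunits summed to 810.5 to 827 CPM under DMSO and 784 to 804 CPM under AC220.

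The same exposure in OCI-AML3 asked how the genes responded without the FLT3 duplication. In that line 4 of 53 tested members were called higher, 0 lower and 49 neither, with a median log2 fold change of -0.01. Over all genes edgeR called 3.44% higher and 0.508% lower after adjustment, with a median of 0.00. At an unadjusted p under 0.05 edgeR gave 7 members higher and 7 lower, and DESeq2 called 1 lower and limma-voom 0 after adjustment. Shares of all genes at the unadjusted p, by DESeq2 or by limma-voom are not given here. The summed level of the members was 3507, 3528 and 3408 CPM under DMSO and 3516, 3508 and 3379 CPM under AC220, so that the groups overlapped. ARSB, the sulfatase that was not called in MV4-11, stood at 2.80, 2.74 and 2.53 CPM under DMSO and 3.43, 3.89 and 9.35 CPM under AC220, a log2 fold change of 1.06 (SE 0.293, adjusted p = 0.0415). Its value was 0.45 (adjusted p = 0.486) without AC220 replicate 3, the highest library. CTSC went from 40.7, 42.5 and 49.3 CPM to 50.2, 62.7 and 81.7 CPM (log2 fold change 0.56, SE 0.146, adjusted p = 0.0494) and had a value of 0.36 (adjusted p = 0.151) without that same replicate. ATP6V1B2 went from 246, 256 and 278 CPM to 287, 327 and 311 CPM (log2 fold change 0.25, SE 0.0675, adjusted p = 0.0353). ATP6AP2 went from 61.3, 57.7 and 66.9 CPM to 77.1, 72.3 and 73.8 CPM (log2 fold change 0.26, SE 0.0761, adjusted p = 0.0479). In these 4 genes the AC220 libraries lay above the DMSO libraries, yet each call was lost when some library, in either line, was left out. The count of members higher was 0 without MV4-11 DMSO replicate 2, without OCI-AML3 DMSO replicate 1 or 2, and without OCI-AML3 AC220 replicate 3. The count lower was 5 without OCI-AML3 DMSO replicate 3, 3 without MV4-11 AC220 replicate 1 and 2 without MV4-11 AC220 replicate 3. Same-numbered OCI-AML3 libraries deviated together, though weakly for replicate 2, so the fit with a replicate block was set beside these values. With the block over all 12 libraries 1 member, CTSC, was called higher, and ARSB (adjusted p = 0.0530), ATP6V1B2 (0.0532) and ATP6AP2 (0.0652) were not. With the block on the OCI-AML3 libraries alone, a fit chosen after seeing the data, 7 members were called higher and 6 lower, where that fit called 11.5% of all genes higher and 6.14% lower, so the members' share higher was near that of all genes. In that fit the 6 lower were TPP1 (log2 fold change -0.32, adjusted p = 7.3e-05), CTSZ (-0.28), ATP6V0B (-0.26), ATP6V1F (-0.21), PSAP (-0.18, adjusted p = 0.0270) and ATP6V0C (-0.15). CTSL (0.72), LAMP2 (0.17) and ATP6V1H (0.28) joined the 4 that were higher.

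Apart from ATP6V1B2, the members that rose by at least 2-fold or fell in MV4-11 were not called in OCI-AML3. Among the proteases, CTSZ had 60.2, 51.3 and 57.2 CPM under DMSO and 50.3, 39.2 and 50.4 CPM under AC220 (log2 fold change -0.27). TPP1 had 133, 130.3 and 109 CPM under DMSO and 103, 107 and 89.2 CPM under AC220 (-0.32). CTSA had 55.4, 58.2 and 58.3 CPM under DMSO and 53.7, 45.3 and 53.1 CPM under AC220 (-0.18). In these 3 the AC220 libraries lay below the DMSO libraries without passing the test. The share of all genes with groups apart in this way is not given here. CTSS had 42.1, 45.4 and 42.8 CPM under DMSO and 42.9, 37.8 and 44.3 CPM under AC220, with overlapping groups. CTSH, which fell in MV4-11, also lay lower in every AC220 library here without passing the test. It had 17.3, 17.6 and 16.0 CPM under DMSO and 15.2, 15.3 and 13.7 CPM under AC220 (-0.20). CTSB under AC220 had 89.8, 91.7 and 82.5 CPM. Of the sulfatases, IDS had 11.3, 11.6 and 14.1 CPM under DMSO and 14.3, 12.1 and 14.2 CPM under AC220, which overlapped. ARSA had 4.20, 4.64 and 4.70 CPM under DMSO and 5.05, 3.61 and 3.81 CPM under AC220, which also overlapped. SGSH under AC220 had 5.14, 5.55 and 6.76 CPM, and ARSB in MV4-11 had 4.41, 4.62 and 4.37 CPM under DMSO and 5.93, 4.10 and 5.45 CPM under AC220. In the lipid class, the activator GM2A and the ceramidase ASAH1 lay within overlapping ranges. GM2A had 15.8, 18.3 and 16.0 CPM under DMSO and 13.4, 16.2 and 17.5 CPM under AC220. ASAH1 had 33.1, 40.1 and 34.5 CPM under DMSO and 35.8, 35.3 and 36.6 CPM under AC220. SMPD1 under AC220 had 7.49, 7.29 and 6.54 CPM, against DMSO libraries that overlapped with it. The sterol carrier NPC2 had 35.6, 31.7 and 30.9 CPM under DMSO and 33.9, 34.2 and 34.5 CPM under AC220, and its groups overlapped. The membrane protein LAMP1 had 241, 249.7 and 237 CPM under DMSO and 246, 248 and 231 CPM under AC220. SCARB2 under AC220 had 22.4, 20.3 and 21.8 CPM, which overlapped with its DMSO libraries. ATP6V1A, ATP6V0E1, ATP6V0A1 and ATP6AP1 of the pump overlapped between the groups as well, while ATP6V0C and ATP6V1H, neither called, did not. ATP6V1A had 46.9, 42.2 and 52.5 CPM under DMSO and 48.1, 45.4 and 52.9 CPM under AC220. ATP6V0E1 had 146, 158 and 154 CPM under DMSO and 147, 148 and 151 CPM under AC220, and ATP6V0A1 under AC220 had 6.22, 7.01 and 7.62 CPM. ATP6AP1 had 69.2, 66.9 and 71.1 CPM under DMSO and 69.8, 59.8 and 52.3 CPM under AC220 (log2 fold change -0.19), with overlapping groups.

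Whether responses differed between the lines was tested as the difference of the AC220 responses. It was called higher in MV4-11 for 32 of 53 members and lower for 5, against 23.0% and 23.7% of all genes, with a median of 0.51 over members and 0.03 over all genes. The largest of those called higher were CD68 (2.49, SE 0.200, adjusted p = 1.8e-11), SGSH (2.48, SE 0.657, adjusted p = 0.00192), TFEB, PSAP (1.94, SE 0.1096, adjusted p = 6.02e-15) and GM2A (1.78, SE 0.148, adjusted p = 4.16e-11). Those called lower were MITF, ATP6V1B2 (-0.79, SE 0.0956, adjusted p = 6.32e-08), ATP6V1H (-0.54, adjusted p = 0.0066), CTSC (-0.53, adjusted p = 0.0488) and CTSH (-0.48, adjusted p = 0.0278). The calls on MITF, CTSC and CTSH were each lost without some library of either line, with adjusted p of up to 0.136, 0.121 and 0.0906, and that on PPT1 (0.30) without OCI-AML3 AC220 replicate 2 (0.0505). ATP6V1B2 fell in MV4-11 and was called higher in OCI-AML3. The replicate block over all libraries ended its OCI-AML3 call, and the block on the OCI-AML3 libraries alone kept it. Responses of CTSB, SMPD1, LIPA, ATP6V0A1, ATP6V1G1 and ATP6AP2, called in MV4-11, were not shown to differ between the lines. Their 95% intervals of the difference ran from -0.09 to 0.38 for CTSB, -0.86 to 0.23 for SMPD1, -0.29 to 0.51 for LIPA, -0.97 to 0.13 for ATP6V0A1, -0.09 to 0.32 for ATP6V1G1 and -0.11 to 0.39 for ATP6AP2.

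The lines were then compared with each other. Under DMSO 21 of 53 members were higher in MV4-11 than in OCI-AML3, 13 were lower and 19 were not called, against 32.1% and 33.4% of all genes. Under AC220 the counts were 37 higher, 8 lower and 8 not called, against 36.7% and 39.5%. The median log2 difference between the lines was 0.06 under DMSO and 0.59 under AC220, against 0.01 and -0.03 over all genes. Both comparisons share no library with each other. Under DMSO the members highest in MV4-11 relative to OCI-AML3 were ATP6V0A1 (log2 difference 1.17, with 7.31, 6.99 and 6.22 CPM in OCI-AML3), CTSB (1.1435, with 87.1, 89.7 and 79.2 CPM) and SMPD1 (1.1434, with 9.95, 7.60 and 7.16 CPM). All 3 were also higher in MV4-11 under AC220. Those lowest were SGSH, CTSL and SCARB2. SGSH stood at 4.97, 5.39 and 4.19 CPM in OCI-AML3 under DMSO, which gave a log2 difference of -5.19 (SE 0.432, adjusted p = 8.15e-12), and it was still lower in MV4-11 under AC220 (-2.71). CTSL stood at 2.64, 4.56 and 4.55 CPM in OCI-AML3 under DMSO and at 4.42, 6.04 and 9.06 CPM under AC220. With 5 counts in MV4-11 against 157 in OCI-AML3 under DMSO its log2 difference was -5.13, and with 0 against 262 under AC220 it was at least 77.4-fold lower, taking a floor of 3 counts over the group. SCARB2 stood at 19.7, 21.9 and 21.3 CPM in OCI-AML3 under DMSO (log2 difference -1.72, adjusted p = 1.65e-12) and remained lower in MV4-11 under AC220 (-0.89).

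For 7 members the order of the lines turned: CTSA, CTSS, GAA, PSAP, LAMP1, CD68 and ATP6V0E1 were lower in MV4-11 than in OCI-AML3 under DMSO and higher under AC220. CD68 stood at 15.9, 14.2 and 18.9 CPM in OCI-AML3 under DMSO and 14.8, 16.0 and 17.04 CPM under AC220, between the DMSO and AC220 libraries of MV4-11. GAA stood at 28.0, 30.5 and 27.1 CPM and then 28.2, 27.6 and 25.2 CPM in OCI-AML3, again between the MV4-11 groups. Its higher level in MV4-11 under AC220 (log2 difference 0.29) was lost without OCI-AML3 AC220 replicate 3 (adjusted p = 0.0523) and with total counts alone. PSAP stood at 133, 133 and 110.1 CPM and then 116, 106 and 109 CPM. LAMP1, at 231 to 250 CPM in the 6 OCI-AML3 libraries, and CTSS, at 37.8 to 45.4 CPM, also lay between the MV4-11 groups. ATP6V1B2 turned the other way, from higher to lower in MV4-11. A further 17 members were higher in MV4-11 in both conditions, among them TFEB (log2 differences 0.85 and 2.98), NEU1 (0.96 and 1.56), CLN3 (1.02 and 1.82) and ARSA (0.62 and 2.30), and 4 were lower in both. The shares of all genes that turned or kept their order are not given here. Whether members turned more often than genes in general was not tested.

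**Figure D4:**
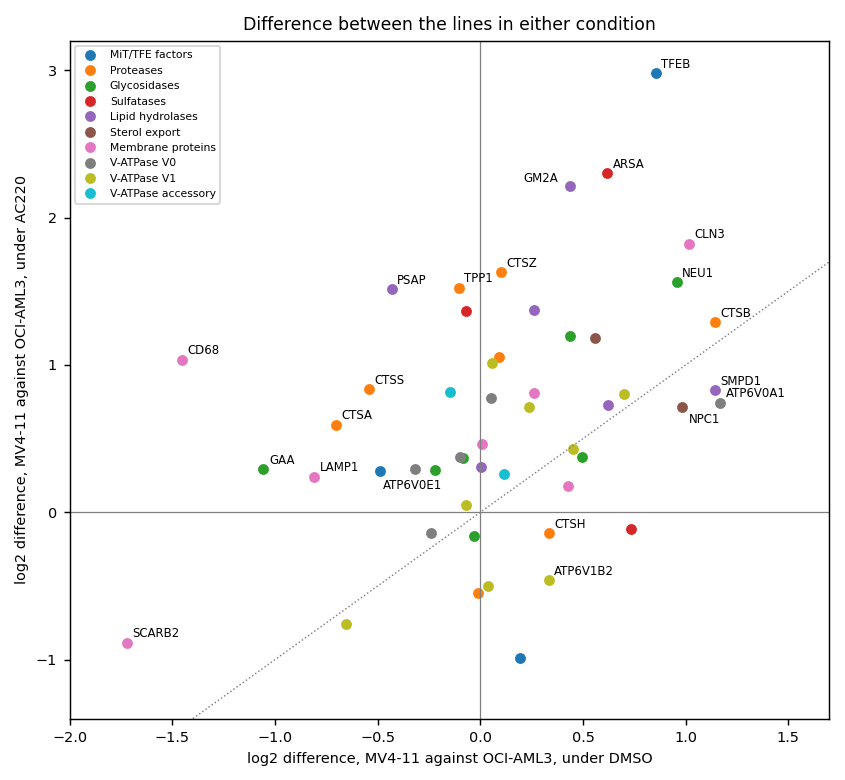
Log2 difference between MV4-11 and OCI-AML3 under DMSO (x axis) and under AC220 (y axis), 1 point for each of 51 members, coloured by class, with a dotted line where both are equal; CTSL, SGSH and LGMN are left out. CD68 lies at -1.45 under DMSO and 1.04 under AC220, in the upper left with GAA, CTSA, LAMP1, CTSS, PSAP and ATP6V0E1.

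Other lysosomal genes were described from 6 lists of 90 entries, of which 82 were tested. In MV4-11 46 of them rose and 10 fell, with a median log2 fold change of 0.45, where 31.5% of all genes were called higher and 26.9% lower. Among 28 other hydrolases 19 rose and 2 fell: PRCP, a carboxypeptidase, rose by 1.85, while GGH, which trims folate polyglutamates, fell by 2.87 on the log2 scale and AGA, of glycoprotein breakdown, by 1.39. GGH stood at 43.3, 39.1 and 41.5 CPM under DMSO and 7.52, 4.47 and 4.63 CPM under AC220 (adjusted p = 4.12e-14). In OCI-AML3 GGH stood at 42.2, 35.6 and 50.5 CPM and then 60.0, 59.2 and 64.0 CPM, a rise of 0.51 (adjusted p = 0.0196). Among 15 other membrane proteins 8 rose and 2 fell, with LAPTM4A (0.85) and LAPTM5 (0.83) against LAPTM4B (-1.58) and the arginine sensor SLC38A9 (-0.91). Of 11 genes that sort hydrolases to the lysosome 7 rose and 0 fell, led by GGA2 (1.37), an adaptor for mannose 6-phosphate receptors, and GNPTAB (1.64), which makes the mannose 6-phosphate tag. Of 9 further pump genes 4 rose and 0 fell, led by DMXL2 (1.64) and ATP6V1G2 (2.67). The list of genes that control the MiT/TFE factors at the lysosome also held TFEC, itself such a factor. It had 6 of 15 higher, TFEC among them, and 4 lower and a median of 0.05, shares near those of all genes (31.5% and 26.9%). TFEC, the fourth MiT/TFE factor, went from 9.16, 12.8 and 10.93 CPM to 45.9, 40.1 and 39.1 CPM in MV4-11 (log2 fold change 1.93, adjusted p = 1e-11), and had 0 counts in the 6 OCI-AML3 libraries. LAMTOR1, an anchor of mTORC1 on the lysosome, rose by 0.43. FLCN, through which TFEB is kept under mTORC1, fell by 0.31 on the log2 scale. Its partner FNIP2 fell from 51 counts to 4 over the MV4-11 libraries. The cathepsin inhibitor CST3 rose by 2.35, from 72.3, 60.4 and 63.6 CPM to 317, 321 and 363 CPM, and CSTB by 0.50, while CSTA (-0.53) and CST7 (-1.32) fell. In OCI-AML3 6 of the 82 genes were called higher and 0 lower by edgeR after adjustment, where 3.44% of all genes were called higher and 0.508% lower. At an unadjusted p under 0.05 the counts were 11 and 5, for which the share of all genes is not given here. Opposite-strand genes cover the 3' ends of FNIP2 (C4orf45), FLCN (MPRIP) and LAMTOR1 (LRTOMT).

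Markers of other cell types were read beside these counts. Both lines held myeloid transcripts, with 0 of 10 markers at 0. In MV4-11 7 of the 10 rose and 1 fell, and their summed level went from 462 to 490.4 CPM under DMSO to 786 to 821 CPM under AC220. Those that rose included LYZ (log2 fold change 1.46), PTPRC (0.88) and CSF1R (2.23), and the marker that fell was CD14, a monocyte co-receptor for endotoxin, from 16 counts to 1 (adjusted p = 0.0177). In OCI-AML3 the sum was 750.2 to 768 CPM under DMSO and 771 to 832 CPM under AC220, and LYZ was called higher there too (log2 fold change 0.46, adjusted p = 0.0415). Of 10 markers of monocyte and macrophage maturation with a row, 5 were tested in MV4-11, of which MARCO, ITGAX and CD86 rose. Their sum went from 17.9 to 20.4 CPM to 37.2 to 38.9 CPM, with FCN1 at 0 in both MV4-11 groups and CD163 at 0 under DMSO. In MV4-11 the B cell list summed to 1.67 to 2.49 CPM under DMSO and 5.01 to 5.90 CPM under AC220, with MS4A1 at 0 under AC220. The epithelial list summed to 10.7 to 11.1 CPM and then 12.5 to 19.7 CPM, nearly all of it KRT8, with EPCAM and KRT19 at 0. The stromal and endothelial list summed to 2.55 to 3.98 CPM and then 0.372 to 1.82 CPM, with VWF at 145 counts and then 3. T cell and erythroid lists summed to at most 0.908 and 1.36 CPM in any MV4-11 library, with CD3E, CD2, HBA1 and HBB at 0. The part of these markers in the lysosomal result was not tested.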

How the data were processed

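Raw counts per gene symbol for 12 libraries and a table of normalised log2 values were deposited by the authors. Libraries were made with a QuantSeq 3' kit from DNase-treated total RNA, per the labels' protocols, so counts do not grow with gene length. Per the submitters' processing notes, the build was hg19 and HISAT2 2.0.4 is named, beside cutadapt 1.9.1, featureCounts with Subread 2.0.0, bcl2fastq 2.17.1.14 and FastQC 0.11.6, as well as limma 3.42.2 in R 3.6.1. The annotation, strand setting and handling of multiply aligned reads are not given in the sources used here. The deposited log2 values (11075 genes) served only as an alternative input.

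A row without a symbol (0.00343% to 0.00503% of counts) was left out. Genes were filtered with filterByExpr, scaled by TMM and tested with edgeR 4.0.16 (R 4.3.3; robust quasi-likelihood F test, a mean per group, 12 libraries, residual degrees of freedom 8) and p-values were adjusted by Benjamini-Hochberg over 12392 genes. The common biological coefficient of variation was 8.28%. The standard error is the unshrunken log2 fold change divided by the square root of F, and intervals are 95%. Per-library CPM of 1 count lay between 0.0580 and 0.0931. The scripts were tested on simulated counts.

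Members and lists were chosen with earlier results of these data known. Values in every library are given for the MiT/TFE factors, the smallest adjusted p in each direction per class, members changed at least 2-fold in MV4-11, those called in OCI-AML3, and the 3 largest line differences in each direction under DMSO; other members are named with their class. From each further list the 2 smallest adjusted p in each direction are named. Results of some genes of the further lists and marker lists are not reported here. Library values of LIPA, NPC1 and MCOLN1 were added after they were seen, as were those of further genes outside the rule.

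Same-numbered OCI-AML3 libraries deviated together (correlations of deviations 0.265, 0.128 and 0.409), which was taken as pairing from the data, since the labels give only a number. DMSO replicate 2 correlated slightly more with AC220 replicate 1 (0.157) than with AC220 replicate 2, so the pairing is not established. Alternatives were other scalings, filters on low counts, DESeq2 1.42.0, limma 3.58.1 on voom or deposited values, a replicate block, the compared libraries alone, each library left out and a threshold of 0.01. A block on the OCI-AML3 libraries alone was chosen after seeing the data.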

Additional observations from a re-analysis of the deposited data

Results flagged for a closer look

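The responses to AC220 of 37 of the 53 tested members differed between the lines by edgeR's test of the difference, adjusted over all genes; each value here is the log2 response in MV4-11 minus that in OCI-AML3. Groups of 3 libraries were not tested for single outlying libraries. Among the MiT/TFE factors the difference was 2.13 for TFEB, 0.77 for TFE3 and -1.18 for MITF. Among the proteases the difference was 1.298 for CTSA, -0.53 for CTSC, 0.96 for CTSD, -0.48 for CTSH, 1.38 for CTSS, 1.53 for CTSZ and 1.63 for TPP1. Among the glycosidases the difference was 0.76 for GLA, 1.35 for GAA, 0.46 for GLB1, 0.51 for HEXA and 0.61 for NEU1. Among the sulfatases the difference was 1.68 for ARSA, 1.44 for IDS and 2.48 for SGSH. Among the lipid hydrolases and activators the difference was 0.30 for PPT1, 1.11 for ASAH1, 1.94 for PSAP and 1.78 for GM2A. In sterol export the difference was 0.62 for NPC2. Among the membrane proteins the difference was 1.05 for LAMP1, 0.55 for LAMP2, 0.45 for CD63, 2.49 for CD68, 0.84 for SCARB2 and 0.81 for CLN3. In the V0 sector the difference was 0.47 for ATP6V0C, 0.72 for ATP6V0D1 and 0.61 for ATP6V0E1. In the V1 sector the difference was 0.96 for ATP6V1A, -0.79 for ATP6V1B2, 0.48 for ATP6V1F and -0.54 for ATP6V1H. Of the accessory proteins the difference was 0.96 for ATP6AP1. Negative values mark a lower response in MV4-11.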

How the results depend on the processing

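In MV4-11 the count of 36 members higher ranged from 32 to 36 over all settings, and that of 4 members lower was 8 with total counts alone, 7 without a filter, 7 with the MV4-11 libraries alone and 3 to 7 with 1 library left out (7 without AC220 replicate 3). In OCI-AML3 the 4 members higher became 2 with median-ratio or upper-quartile scaling, 0 with total counts alone, 0 with limma on the deposited values, 1 with the replicate block, 1 with the OCI-AML3 libraries alone, 7 with the block on those libraries alone, 0 at a threshold of 0.01 and 0 to 4 with 1 library left out. The 0 members lower there became 1 with median-ratio scaling, 3 without a filter, 1 with DESeq2, 2 with the OCI-AML3 libraries alone, 6 with the block on them and 0 to 5 with 1 library left out (5 without DMSO replicate 3). Of the differences of responses, the 5 called lower became 7 without a filter, where CTSL and ARSB joined, 2 with upper-quartile scaling, 3 with a stricter filter, 2 with limma on the deposited values, 2 at 0.01 and 2 to 5 with 1 library left out, and the 32 called higher stayed at 31 or 32. The cause of these changes was not tested. No called member changed direction in any comparison. Of the calls, 5 of 40 were lost under some setting in MV4-11, 4 of 4 in OCI-AML3, 4 of 37 for the difference, 6 of 34 for the lines under DMSO and 3 of 45 under AC220. The replicate block removed 0 calls in MV4-11 and added 1, MITF (log2 fold change -0.81, adjusted p = 0.0442), where same-numbered libraries share only a number (correlations -0.305, -0.078 and -0.235), and changed 0 calls on the difference. Total counts alone shifted the median of all genes by -0.0983 in MV4-11 and -0.109 for the difference. Counts were few for CTSL and SGSH in MV4-11 and for LGMN in all groups, which limits the precision of their values.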
